A study of Homo sapiens with 2 samples.

Results

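The transcripts described here encode 10 cytoplasmic RNA-binding proteins of messenger ribonucleoprotein particles (mRNPs) and stress granules. They are IGF2BP1, IGF2BP2, IGF2BP3, G3BP1, G3BP2, CAPRIN1, ATXN2, PABPC1, PABPC4 and YBX1. Each was found as the row of the deposited expression table that carries its symbol, which gave 10 of 10 genes among 13075 in all. The measurements are of the mRNAs that encode these proteins, not of the proteins or of the RNAs they bind. HEK293, a human embryonic kidney cell line, had been transfected with TOP3B that carries the R338W substitution and a FLAG tag. From these cells came 1 input library, made with no antibody, and 1 RIP (RNA immunoprecipitation) library, made from RNA recovered on the ANTI-FLAG M2 antibody, both at passage 15. Both groups thus carry the tagged R338W protein, and the labels state neither whether the transfection was transient nor whether the cells were 1 clone. A RIP from cells without the tag, or with unmutated TOP3B, was not analysed here, and neither group had a replicate, so no value below has a replicate error and no test between the groups was possible.

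An mRNA leaves the nucleus coated with proteins that decide how long it lives and how well it is translated. YBX1 packages mRNAs along their length, PABPC1 and PABPC4 coat the poly(A) tail, and the IGF2BP proteins bind and stabilise chosen mRNAs. When translation stalls, such particles gather into stress granules, for which G3BP1 and G3BP2 are the core scaffold, CAPRIN1 is their direct partner, and ATXN2 is a component that binds poly(A)-binding proteins. TOP3B, a topoisomerase active on DNA and RNA, works with TDRD3, itself known as a stress-granule protein, and with FMRP.

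The level of TOP3B and the cell line were checked first. Levels are in FPKM, which divides fragments by transcript length and by the library's total, and where a pair of values is given the RIP comes before the input. TOP3B reached 30666 FPKM, against 15062 before immunoprecipitation. This value is for the gene and does not separate the tagged transcript from the cells' own TOP3B. Of 8 genes known to be expressed in HEK293 cells 7 were in the table, led by VIM at 679 and 544 FPKM, and PAX2 had no row. Of 14 markers of liver, blood, endothelium, differentiated kidney, stroma and glia only COL1A1 had a row, at 7.45 and 2.19 FPKM, while ALB, PTPRC, CDH5, UMOD and the rest had none. From steps in the low values, about 24700000 fragments were estimated behind the RIP and 15100000 behind the input.

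Because 7 of the 10 genes have a paralog among the 10, it matters whether their fragments can be told apart. The coding sequences of paralogs were compared in GENCODE 29 transcripts (GRCh38). YBX1 (chromosome 1, 42682427 to 42702349, plus strand) and YBX3 (chromosome 12, 10699089 to 10723312, minus strand) encode proteins with a shared cold-shock domain, and G3BP1 (chromosome 5, 151771045 to 151812785, plus strand) and G3BP2 (chromosome 4, 75642782 to 75724525, minus strand) are the closest copies of each other. The stretch of 120 coding bases in which each pair is most alike is shown, because there the fragments of the 2 paralogs resemble each other most. Capitals mark the bases that differ between the 2 sequences of a pair, and positions are counted from the A of the start codon.

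YBX1, coding bases 230 to 349: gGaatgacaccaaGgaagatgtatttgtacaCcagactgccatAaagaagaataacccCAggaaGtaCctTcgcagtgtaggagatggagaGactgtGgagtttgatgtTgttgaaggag

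YBX3, coding bases 326 to 445: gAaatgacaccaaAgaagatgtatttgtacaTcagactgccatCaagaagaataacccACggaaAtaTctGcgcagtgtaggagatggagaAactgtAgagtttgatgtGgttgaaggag

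G3BP1, coding bases 316 to 435: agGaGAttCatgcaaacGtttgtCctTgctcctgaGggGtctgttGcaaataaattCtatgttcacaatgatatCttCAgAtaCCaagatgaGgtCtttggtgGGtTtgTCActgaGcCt

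G3BP2, coding bases 316 to 435: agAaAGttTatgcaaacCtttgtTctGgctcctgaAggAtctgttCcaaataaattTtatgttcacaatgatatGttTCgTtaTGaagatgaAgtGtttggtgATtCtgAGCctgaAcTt

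The YBX1 and YBX3 stretches differed at 12 of 120 bases and the G3BP1 and G3BP2 stretches at 27 of 120. Over whole coding sequences the identity was 70.6% for YBX1 and YBX3 and 71.6% for G3BP1 and G3BP2. It was 74.0% for PABPC1 and PABPC4, and lay between 69.9% and 70.2% for the 3 pairs of IGF2BP genes. In none of the 9 paralog pairs compared, which did not include PABPC3, did an identical run exceed 22 bases. Longer shared sequence was found with genes outside these pairs. Of the windows of 100 bases along the YBX1 transcript, 16.5% occurred unchanged in a transcript of another gene, and the 3 genes were the pseudogenes YBX1P1, YBX1P2 and YBX1P10. The share was 1.89% for PABPC1, 0.992% for IGF2BP2, 0.795% for IGF2BP3 and 0.641% for PABPC4. The PABPC1 windows were shared with AC098591.2 and with PABPC3, a gene of the same family. No window was shared for IGF2BP1, G3BP1, G3BP2, CAPRIN1 or ATXN2. No row of the table was named as a copy of any of the 10 genes, meaning its symbol followed by P and a number. Sharing genes with other names, such as AC020629.1 for IGF2BP2, could not be found by this search. The 3 YBX1 pseudogenes thus had no row, so the YBX1 value may hold their fragments, and the part they play was not tested.

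In the input, YBX1 was the most abundant of the 10 transcripts and IGF2BP1 the least. YBX1 had 457 FPKM before immunoprecipitation and 261 after it. PABPC1 had 249 before and 285 after it, which made it the highest of the 10 in the RIP. The input levels of all 10 exceeded that of the median protein-coding gene, 18.8 FPKM, from 1.65 times for IGF2BP1 to 24.3 times for YBX1. Between input and RIP, YBX1 and PABPC1 exchanged ranks 1 and 2, G3BP1 and G3BP2 exchanged ranks 5 and 6, and ATXN2 moved from rank 7 to rank 9. There is no replicate spread to set neighbours in this order against.

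**Figure D1:**
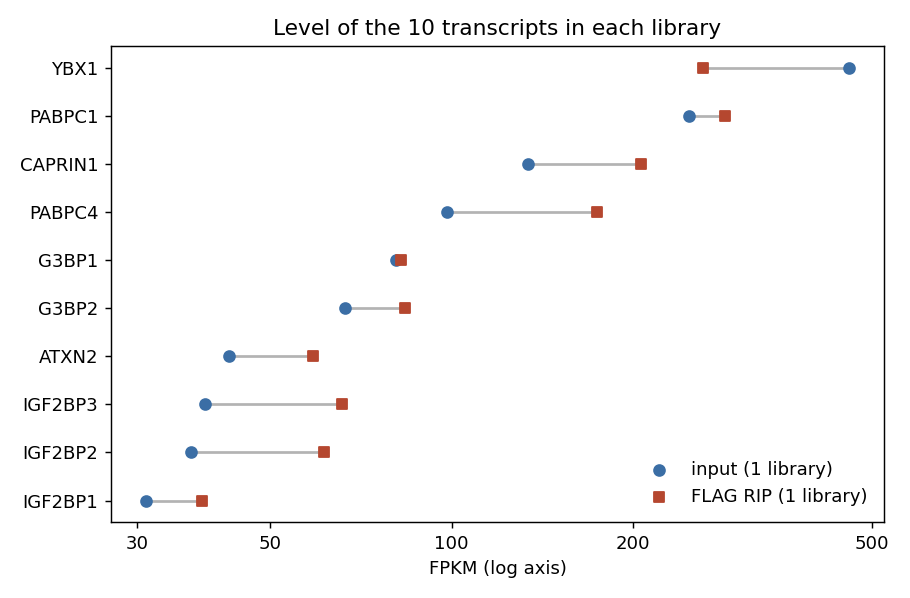
FPKM (log axis) of the 10 transcripts in the input (circles) and the FLAG RIP (squares), 1 library each, ordered by input level. YBX1 is the only transcript whose RIP value (261) lies left of its input value (457), and the G3BP1 symbols (82.4 and 80.8) nearly coincide.

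Each transcript was then compared between the libraries as log2((RIP + 1)/(input + 1)), called the log2 ratio, over the 11990 genes that reached 5 FPKM in either library. All 10 transcripts were above 5 FPKM in both. In 9 of 10 the value was higher in the RIP, against 58.7% of all 11990 genes, and the median log2 ratio of the 10 was 0.39, against 0.13 for all genes and 0.15 for the 10513 protein-coding genes. None of the 10 was at least 2-fold higher or lower, where 4.9% of all genes were at least 2-fold higher and 2.5% at least 2-fold lower (3.65% and 0.533% of protein-coding genes). In genes these are 588 and 300, and the balance depends on the scaling, since centring on the median gene gave 365 and 450. At a limit of 1.5-fold, 4 of the 10 were higher, against 19.9% of all genes, and 1 was lower, against 10.2%. The libraries are of bulk lysate, so a transcript present in fewer cells and one present at less RNA per cell cannot be told apart.

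**Figure D2:**
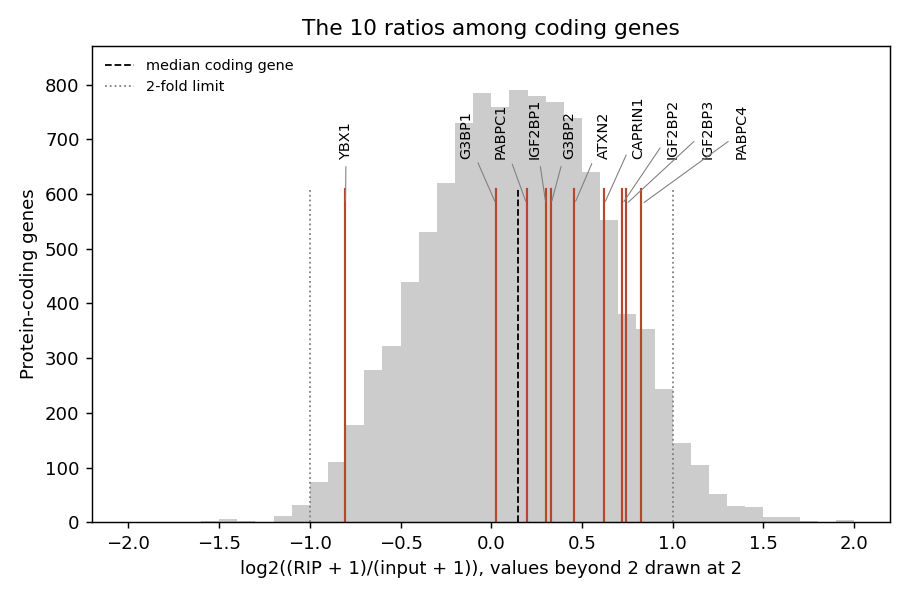
Histogram of the log2 ratio over protein-coding genes (x axis log2 units, y axis number of genes), with a vertical line for each of the 10 transcripts, a dashed line at the median coding gene (0.15) and dotted lines at the 2-fold limits. YBX1 (-0.80) lies in the left tail, G3BP1 (0.03) and PABPC1 (0.20) lie near the median, and PABPC4 (0.83) lies farthest right.

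The IGF2BP transcripts were all higher in the RIP, IGF2BP1 by less than its paralogs. IGF2BP1 (ENSG00000159217.9, GRCh38 chromosome 17, 48997412 to 49055650, plus strand), the zipcode-binding protein known for ACTB and MYC mRNA, measured 38.6 FPKM with the antibody and 31.1 without, a log2 ratio of 0.30. IGF2BP2 (ENSG00000073792.15, chromosome 3, 185643739 to 185825056, minus strand), which remains expressed in many adult tissues, stood at 61.5 and 36.9 FPKM, a log2 ratio of 0.72. IGF2BP3 (ENSG00000136231.13, chromosome 7, 23310209 to 23470467, minus strand), a fetal protein that returns in many tumours, stood at 65.8 and 39.0 FPKM, a log2 ratio of 0.74. The latter pair thus lay above 86.7% and 87.5% of all genes, whereas IGF2BP1 lay above 62.0%. Within the family, IGF2BP1 made up 29.1% of the summed FPKM in the input and 23.3% in the RIP. The quotient of IGF2BP3 to IGF2BP2 hardly moved, at 1.06 in the input and 1.07 in the RIP. Such quotients within a library do not depend on how the libraries are scaled to each other.

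Of the stress-granule scaffolds, G3BP1 was close to the median gene and G3BP2 lay above it, as did their partner CAPRIN1. G3BP1 (ENSG00000145907.14) measured 82.4 FPKM with the antibody and 80.8 without, a log2 ratio of 0.03. This is below the median gene at 0.13, so centring on the median gene turned its sign to -0.10. G3BP2 (ENSG00000138757.14) stood at 83.8 and 66.5 FPKM, a log2 ratio of 0.33 that exceeded 64.0% of all genes. The quotient of G3BP1 to G3BP2 was 1.22 in the input and 0.984 in the RIP. CAPRIN1 (ENSG00000135387.19, chromosome 11, 34051683 to 34101156, plus strand), whose protein binds G3BP1 and drives granule formation, stood at 206 and 134 FPKM, a log2 ratio of 0.62 that exceeded 82.0% of all genes. ATXN2 (ENSG00000204842.14, chromosome 12, 111443485 to 111599676, minus strand), the polyglutamine protein of spinocerebellar ataxia, stood at 58.9 and 42.7 FPKM, a log2 ratio of 0.46. Its paralog ATXN2L, at 99.3 and 69.4 FPKM, had a log2 ratio of 0.51, and the quotient of ATXN2L to ATXN2 was 1.63 in the input and 1.69 in the RIP.

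Of the 2 cytoplasmic poly(A)-binding protein transcripts, PABPC4 had a higher ratio than PABPC1. PABPC1 (ENSG00000070756.13, chromosome 8, 100685816 to 100722809, minus strand), the major poly(A)-binding protein of most cells, measured 285 FPKM with the antibody and 249 without, a log2 ratio of 0.20. PABPC4 (ENSG00000090621.13, chromosome 1, 39560816 to 39576790, minus strand), the inducible form, stood at 175 and 98.2 FPKM, a log2 ratio of 0.83, the highest of the 10 and above 90.4% of all genes. PABPC1 was 2.53 times as abundant as PABPC4 in the input and 1.63 times in the RIP. The related PABPC1L, at 68.5 and 38.2 FPKM, had a log2 ratio of 0.82, and the quotient of PABPC4 to PABPC1L was 2.57 in the input and 2.55 in the RIP. By distance over the log2 levels in both libraries, the coding genes outside the lists nearest to PABPC4, the member with the largest absolute ratio, were ERVK3-1, SP110 and ATRX. With 2 libraries this likeness means only similar levels in each. The choice of PABPC4 rests on the values as deposited, since YBX1 had the larger absolute ratio when centred on the median gene (-0.93 against 0.70) and under both rescalings without abundant RNAs (-0.88 against 0.75 by summed FPKM, -0.91 against 0.71 by estimated fragments).

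YBX1 was the one transcript of the 10 with less in the RIP. YBX1 (ENSG00000065978.17), at 261 FPKM in RIP and 457 FPKM in input, had a log2 ratio of -0.80 and lay above 4.61% of all genes and 2.23% of protein-coding genes. Against the median coding gene it was 24.3 times as high in the input and 12.5 times as high in the RIP. YBX3, a cold-shock domain protein of the same family, stood at 229 and 198 FPKM, a log2 ratio of 0.21. YBX1 was thus 2.31 times as abundant as YBX3 in the input and 1.14 times in the RIP. YBX1 held 37.0% of the summed FPKM of the 10 transcripts in the input and 19.8% in the RIP. Without YBX1 the other 9 ran from 0.03 to 0.83 with a median of 0.46.

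**Figure D3:**
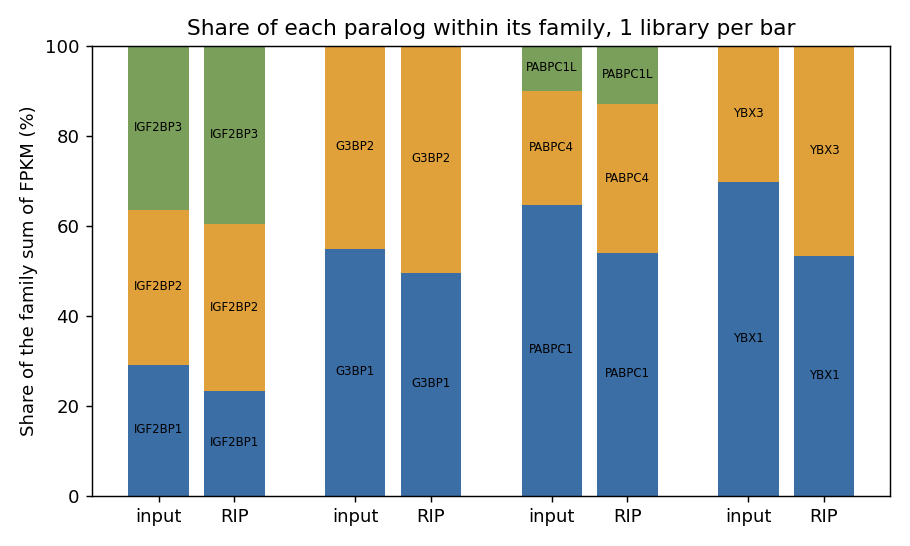
Share (%) of each paralog in the summed FPKM of its family, with 1 bar for the input and 1 for the RIP. YBX1 takes 69.8% of the YBX bar in the input and 53.3% in the RIP, PABPC1 takes 64.6% and 54.0% of the PABPC bars, and the IGF2BP2 and IGF2BP3 segments are larger in the RIP than in the input.

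The transcripts differ in length, and the ratio of coding genes moved with coding length. Over the 10513 protein-coding genes, Spearman's rho between log2 ratio and longest annotated coding length was 0.51, a description across genes of the same 2 libraries, which are not independent replicates. The median log2 ratio of coding genes went from -0.25 in the quintile with the shortest coding sequence to 0.51 in the quintile with the longest. Total length of the longest transcript followed the ratio less closely, with a rho of 0.26. Among the 10 transcripts the rho was 0.61 with coding length and -0.08 with total length, each over 10 points that share both libraries. YBX1 has the shortest complete coding sequence of the 10, at 975 bases with the stop codon (its longest annotated coding stretch has 1121), and ATXN2 the longest, at 3942 bases. G3BP1 has the longest transcript, at 10240 bases, of which 8694 are 3′ untranslated, but a coding sequence of only 1401 bases and the second-lowest ratio. Length of the 3′ untranslated sequence had a rho of -0.20 with the ratio over the 10. Short ends went with ratios at both extremes. Those of YBX1 (400 bases) and PABPC1 (445 bases) went with the lowest and third-lowest ratios. The shortest, that of PABPC4 (320 bases), went with the highest ratio.

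Read against coding genes of the same quintile of coding length, several of the 10 came close to the median of that quintile. IGF2BP1 differed from it by -0.0019 log2, ATXN2 by -0.056, PABPC1 by -0.11 and G3BP1 by -0.12. PABPC4, IGF2BP3, IGF2BP2 and CAPRIN1 lay above it, by 0.52, 0.44, 0.42 and 0.32 log2, and G3BP2 lay 0.18 above. YBX1 lay 0.80 below the median of its quintile, which is 0. The median difference of the 10 from their quintiles was 0.089 log2, so the margin over all genes (0.39 against 0.13) was smaller at matched coding length. The part of coding length in each ratio was not tested.

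**Figure D4:**
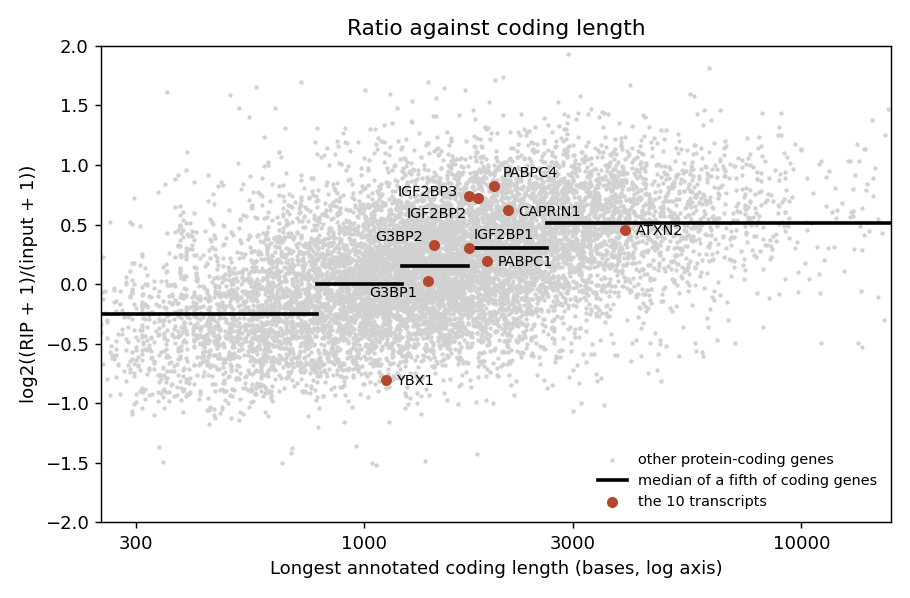
Log2 ratio (y axis) against longest annotated coding length in bases (log x axis) for protein-coding genes (grey) and the 10 transcripts (red), with black lines at the median of each quintile of coding genes; genes outside the axes are not drawn. The black lines climb from -0.25 to 0.51, YBX1 lies 0.80 below its line, and PABPC4 lies 0.52 above its line.

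The transcripts of proteins that work with these 10 gave medians between those of all genes and of the 10. These lists and those below were set against all genes without matching for coding length, with which the ratio of coding genes moved. The part of coding length in their values was not tested. Of 18 partners of G3BP and other stress-granule proteins, 18 were measured, 17 had values above 0, against 58.7% of all genes, and 0 were at least 2-fold apart in either direction, against 4.9% higher and 2.5% lower of all genes, with a median log2 ratio of 0.30. PRRC2B, a proline-rich granule protein, measured 101 FPKM with the antibody and 53.1 without. TIAL1, an RNA-binding protein that aggregates in granules, stood at 116 and 62.7 FPKM, and CAPRIN2, the paralog of CAPRIN1, at 45.5 and 25.6 FPKM. At the low end NUFIP2, a partner of G3BP1 and FMRP, stood at 54.7 and 61.1 FPKM with a ratio of -0.16, TDRD3 at 15.5 and 14.4 FPKM, and FXR1, a paralog of FMRP, at 93.1 and 85.0 FPKM.

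Of 18 partners of poly(A)-binding proteins 17 were measured, with a median log2 ratio of 0.23, 13 values above 0 (58.7% of all genes were), 1 at least 2-fold higher (4.9% of all genes) and 0 lower (2.5% of all genes). That transcript was PAN2, the catalytic subunit of a deadenylase, at 128 FPKM in RIP and 46.7 FPKM in input. TNRC6A, a silencing scaffold that contacts PABPC1, stood at 56.9 and 28.7 FPKM, and EIF4G1, the initiation scaffold that joins cap and tail, at 233 and 148 FPKM. PAIP1, a coactivator of translation that binds PABPC1, stood at 54.9 and 80.8 FPKM with a log2 ratio of -0.55. TOB1, which recruits deadenylases to poly(A)-binding protein, stood at 10.3 and 15.0 FPKM with a ratio of -0.51, and LARP4 at 38.5 and 43.4 FPKM with a ratio of -0.17.

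Proteins that share mRNPs with IGF2BP1 and YBX1 had a median log2 ratio of 0.36 over 23 rows of 22 genes, MATR3 having 2 rows. Of these rows 18 were above 0, against 58.7% of all genes, and 0 were at least 2-fold lower, against 2.5%. UPF1, the helicase of nonsense-mediated decay, stood at 59.7 and 32.2 FPKM, and STAU2, a transport protein of dendritic mRNAs, at 38.8 and 22.6 FPKM. At the low end LIN28B stood at 9.31 and 15.7 FPKM, STRAP at 38.2 and 56.5 FPKM, and SYNCRIP at 79.6 and 105 FPKM.

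Transcripts known to be bound by IGF2BP proteins lay on both sides of the median gene, and their median was below the ratio of each IGF2BP transcript. Of 15 listed, 11 were measured, with a median log2 ratio of 0.02, 7 values above 0, against 58.7% of all genes, and 0 at least 2-fold apart, against 4.9% higher and 2.5% lower. BTRC, a ubiquitin ligase subunit, stood at 22.4 and 12.4 FPKM with a ratio of 0.80, MYC, the growth-promoting transcription factor, at 42.0 and 29.7 FPKM with 0.49, and CD44, an adhesion receptor, at 35.3 and 27.1 FPKM with 0.37. LIN28B, also counted above, had -0.69, HMGA2 stood at 9.55 and 14.6 FPKM with -0.56, and SRF at 9.35 and 11.2 FPKM with -0.23. With a floor of 20 FPKM the median of this list was 0.19, and centred on the median gene it was -0.11. The 5 measured genes listed as paralogs outside the 10 had a median of 0.51, from PABPN1 (62.3 and 61.6 FPKM) to PABPC1L. PABPN1, the nuclear poly(A)-binding protein, was not among the paralog pairs compared, and the median includes it. Among the 5, ATXN2L and CAPRIN2 are also counted with the G3BP partners.

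**Figure D5:**
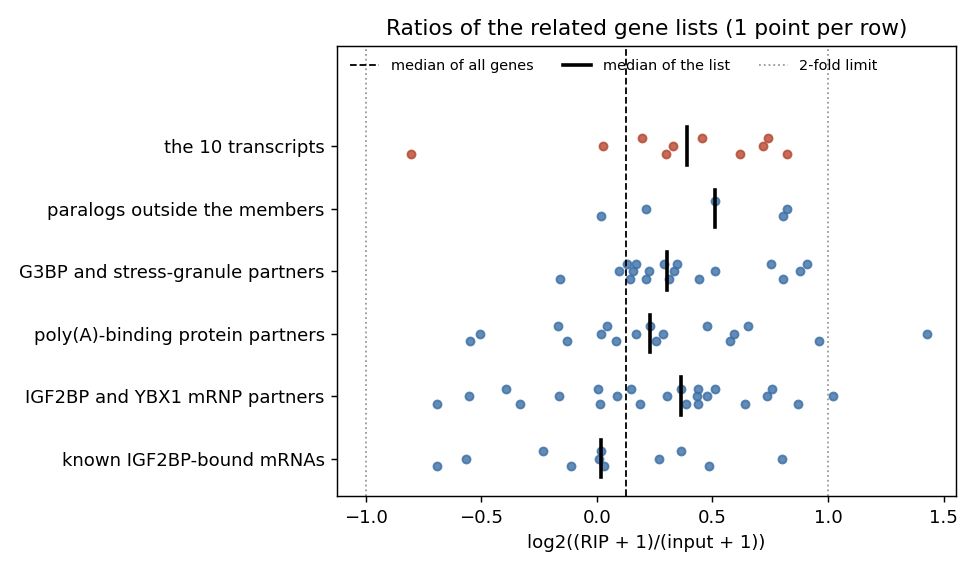
Log2 ratio (x axis) of every measured row in the 10 transcripts (red) and 5 related lists (blue), with a bar at each list's median, a dashed line at the median of all genes (0.13) and dotted lines at the 2-fold limits. The medians run from 0.02 for known IGF2BP-bound mRNAs to 0.51 for the list of paralogs, which includes PABPN1, and PAN2 (1.43) lies farthest right.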

How the data were processed

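The authors deposited 1 table of FPKM values per gene for 2 libraries; the unit is not named in it and was taken from the values, which have decimals and sum to 1090240 for the RIP and 1512050 for the input. Per the submitters' processing notes the tools were RSEM 1.2.31, STAR 2.6.1, Trimmomatic 0.3 and cutadapt 1.18, on hg38. Their settings, the annotation and any minimum level were not given in the sources used here. FPKM is relative to each library's total, so very abundant RNAs, TOP3B included, lower all other values.

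Depth was estimated from genes with 1 annotated transcript, as the depth at which low values come nearest to whole fragments. At that depth 67.9% of 131 such RIP values and 64.7% of 258 input values lay within 0.15 of a whole fragment. Depth and fragment length were chosen to bring values near whole fragments, so these shares are no independent check of the estimate. At the median annotated transcript length, the 10 genes rest on an estimated 193 to 6780 fragments per library, a counting error of about 0.12 log2 or less; this is not replicate error.

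Ratios used a pseudocount of 1 FPKM, which understates differences of low genes, and a floor of 5 FPKM, which removed 1085 genes. Called means at least 2-fold apart; no p-value was computed. Coordinates, gene types and lengths came from GENCODE 29, matched by Ensembl identifier without its version for 12983 genes (99.3%). Paralogs were aligned with Biopython 1.88; Python 3.11.15, numpy 2.4.6, pandas 2.3.3 and matplotlib 3.10.9 were used. The ratio and depth calculations were tested on simulated data. For depth these were whole fragment counts, which the estimate itself assumes, so that test does not check the estimate for these data. Members, lists and rules were chosen with earlier results of these data known. Named genes are the 10, the 3 highest and 3 lowest of each list (all where 6 or fewer were measured), and the 3 nearest to the member with the largest absolute ratio. Other pseudocounts, floors, scalings, limits and backgrounds were tried. Of the genes this rule names, 1 is not reported here.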

Additional observations from a re-analysis of the deposited data

How the results depend on the processing

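No paired analysis was possible because there is 1 library a group, and none could be left out. Count-based scaling needs counts and was not run on FPKM. None of the 10 transcripts passed the 2-fold limit under the other pseudocounts, floors or scalings. With the limit of 1.5-fold 4 were higher, against 19.9% of all genes, and 1 was lower, against 10.2%. YBX1 stayed below 0 and 8 of the others above 0 under each of these scalings. Centring puts the median of all genes at 0 by construction. It was 0.054 rescaled by summed FPKM and 0.018 rescaled by estimated fragments. The share of all genes above 0 was not computed under these scalings. G3BP1 changed sign when centred or rescaled. A value was taken as moved beyond 0.1 log2, since no replicate spread exists. Causes were not tested unless the setting's construction gives them. At the median annotated transcript length the IGF2BP transcripts rest on the fewest estimated fragments of the 10, an order that depends on the length used.

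The median of the 10 was 0.26 centred on the median gene, 0.25 as the difference from the median coding gene, 0.14 against the same quintile of longest transcript length, and, in settings added after seeing the data, 0.28 rescaled by estimated fragments without abundant RNAs and TOP3B, 0.23 against the same quintile of median transcript length and 0.089 against the same quintile of coding length. Centring and fragment rescaling lower every ratio by 0.13 and 0.11 log2. They gave 0.17 and 0.19 for G3BP partners, 0.10 and 0.12 for poly(A)-binding protein partners, and 0.24 and 0.25 for IGF2BP and YBX1 partners. The list of paralogs, PABPN1 included, had 0.38 and 0.40. IGF2BP-bound mRNAs had -0.11 and -0.091, and 0.19 with a floor of 20 FPKM.

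Over all genes, 588 were higher and 300 lower. Pseudocount 5 gave 300 and 180, a floor of 20 FPKM 352 and 157, the 1.5-fold limit 2386 and 1222, and centring 365 higher and 450 lower genes.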
